A study of Mus musculus with 18 samples.

Results

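Gene expression was compared between grown intestinal organoids at day 5 of culture and the same kind of culture at day 1, in 3 libraries of each day out of 18 in the series. A gene entered the comparison when it reached 1 RPKM, the reads on a gene divided by its length and by the size of the library, in at least 3 of these 6 libraries, which left 10600 genes of the 24116 in the deposited table. Both groups were wild-type C57BL/6 mouse material from animals aged 8 weeks, and each library pooled 30 wells. The day 1 cultures had grown in ENR, a medium with EGF, Noggin and R-spondin, together with 20% Wnt3a-conditioned medium, 10 µM of the ROCK inhibitor Y-27632 and 3 µM of the GSK3 inhibitor CHIR99021. CHIR99021 was left out after day 1, Wnt3a and Y-27632 after day 3, and the day 5 cultures had spent their last days in ENR alone. The effect of the 4 days of growth and the effect of the medium therefore cannot be told apart. By the sample titles, the day 1 libraries came from organoid lines of mouse 1, mouse 1 and mouse 3, and the day 5 libraries from mouse 1, mouse 2 and mouse 3. Replicate 1 of each day had no DNase treatment and replicates 2 and 3 had it. Values are given below in the order of replicates 1, 2 and 3. Apart from the DNase treatment, only the titles tell the replicates apart. The p-values rest on the spread between libraries of the same day, estimated over all 18 libraries. Part of that spread may be technical, and it takes in differences of mouse and DNase treatment.

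An intestinal organoid is an epithelial structure grown from intestinal stem or progenitor cells in a gel. Its stem cells sit in crypt-like buds beside Paneth cells, which secrete antimicrobial peptides, and give rise to absorptive enterocytes, mucus-secreting goblet cells, hormone-producing enteroendocrine cells and tuft cells. Wnt and Notch signals hold the stem cell compartment, and the transcriptional coactivator YAP is known to drive a transient regenerative or fetal-like state when organoids start from few cells.

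Defining markers of epithelium were high in these libraries and those of other tissues were near 0. The reads per library implied by the deposited values were 43010000 to 53930000 for these 6 libraries, so that 1 RPKM stood for 43 to 54 reads per kilobase. Whether scaling factors entered the RPKM is not given in the sources used here, and if they did, these are scaled library sizes and not numbers of reads. Correlations of log2(RPKM + 1) across genes were 0.964 to 0.986 within a day and 0.84 to 0.913 between the days, and these genes are not independent replicates. Of the markers of other tissues, 13 of 15 mesenchymal, 13 of 15 immune and 10 of 10 endothelial or blood genes stayed below 1 RPKM in all 6 libraries. Col3a1, Dcn, Lum, Cd3g, Tyrobp, Kdr and Emcn were listed at 0 throughout. The summed level of the mesenchymal markers was 1.13 to 1.61 RPKM at day 1 and 2.05 to 5.77 RPKM at day 5. That of the immune markers was 4.35 to 5.72 and 4.38 to 7.85 RPKM, and that of the endothelial or blood markers 0.0502 to 0.0744 and 0.133 to 0.221 RPKM. Their part in any result was not tested. The epithelial adhesion molecule Epcam was at 386, 425 and 490 RPKM at day 1 and at 448, 428 and 387 RPKM at day 5, with overlapping groups. The summed level of 10 epithelial identity genes, Epcam among them, was 4974 to 7501 RPKM at day 1 and 2884 to 3517 RPKM at day 5, without overlap. Of these 10, the keratin genes Krt8, Krt18 and Krt19 were called lower and none was called higher.

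Of the 10600 genes, 3079 passed limma's test at an adjusted p under 0.05, which is 29.0% of those tested. At day 5, 1284 genes (12.1%) were higher and 1795 (16.9%) were lower. Of all genes, 10.7% were called with a change of 2-fold or more after adding 1 RPKM, of which 648 were higher and 483 were lower. The rises went further than the falls: 34 genes rose and 2 fell by at least 16-fold. The 3 values of one day all lay on one side of the 3 of the other for 53.7% of all tested genes, and for 3063 of those called. The balance of rises and falls depended on the scaling. The median log2 change over all tested genes was -0.16, and after the values were rescaled by median-of-ratios factors it was -0.01, with 1627 genes higher and 1360 lower. Rises thus made up 41.7% of the calls on the deposited values and 54.5% after rescaling. Single abundant genes weighed more on the sum at day 5, where the 10 most abundant genes held at least 9.94% of all RPKM in each library, against at most 6.42% at day 1. Leaving out 1 library left fewer calls. Without replicate 1 of day 1 there were 830 higher and 648 lower genes, without replicate 2 of day 1 there were 805 and 874, without replicate 1 of day 5 there were 925 and 743, without replicate 2 of day 5 there were 885 and 934, and without replicate 3 of day 5 there were 873 and 897. A fit of DNase-treated libraries alone, 12 over all days and 4 of these 6, gave 858 and 827. No called gene changed sign in any of these fits. In the other days, replicate 1 of day 0, replicate 2 of day 3 and replicate 3 of day 4 lay apart in some lists of genes. They enter the shared estimate of the spread, and a fit without these 3 called 1616 genes higher and 2539 lower. Other libraries lay apart as well. Positions were taken as medians over the rising genes, from 0 at the day 1 mean to 1 at the day 5 mean. Replicate 2 of day 2 stood at 0.44, against 0.16 and 0.07 for replicates 1 and 3. Replicate 1 of day 3 stood at 0.69, against 0.11 and 0.33 for replicates 2 and 3. Replicate 1 of day 0, at 0.31, was near the others of its day, at 0.38 and 0.42. Leaving out replicate 2 of day 2 was not tested.

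**Figure D1:**
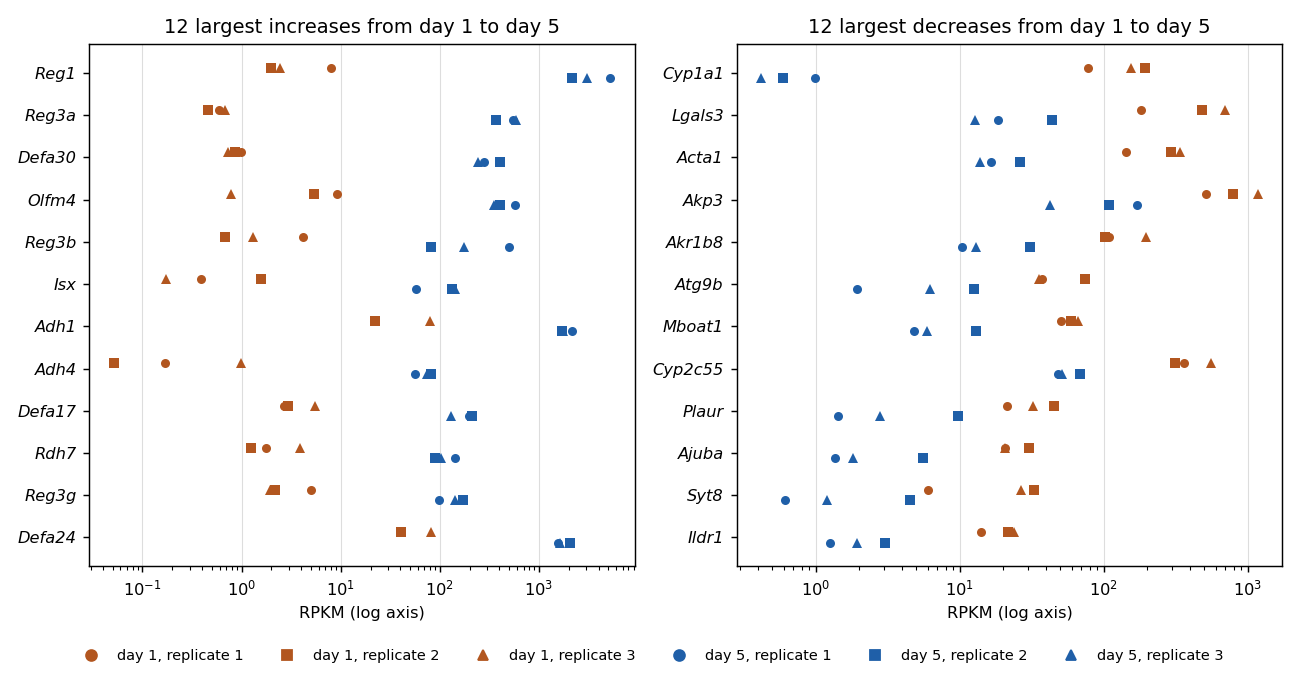
RPKM on a log axis for the 12 largest increases (left) and the 12 largest decreases (right), predicted genes and clone names left out, between day 1 (orange) and day 5 (blue), with 1 point per library and a marker shape per replicate. Reg1 moved from between 2 and 8.08 RPKM to between 2148 and 5240 RPKM, and Cyp1a1 from between 78.1 and 194 RPKM to below 1 RPKM.

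The 12 largest increases named by the rule fell into 4 kinds of genes. They were the Reg lectins Reg1, Reg3a, Reg3b and Reg3g, the alpha-defensins Defa30, Defa17 and Defa24, the retinoid and alcohol metabolism genes Adh1, Adh4, Rdh7 and Isx, and the stem cell gene Olfm4. Predicted genes and clone names were left out of this ranking, and 2 of them, AY761184 and Gm14851, had log2 changes of 5.51 and 5.3, between those of Adh4 and Defa17. The 12 largest decreases were less alike. They included Cyp1a1, Akr1b8 and Cyp2c55, which encode enzymes that act on foreign compounds and lipids, and Lgals3, Plaur and Ajuba, which belong to lists of regenerating epithelium and YAP targets. The rest were Acta1, Akp3, Atg9b, Mboat1, Syt8 and Ildr1. The calls of Atg9b, Plaur and Syt8 were lost without any 1 of 6, 5 and 4 of the 6 libraries (adjusted p of up to 0.167, 0.119 and 0.133), and those of the other 9 decreases and of all 12 increases were kept without each. Among the increases, Reg3a, Defa30 and Adh4 had passed the filter only through day 5 and could only rise.

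**Figure D2:**
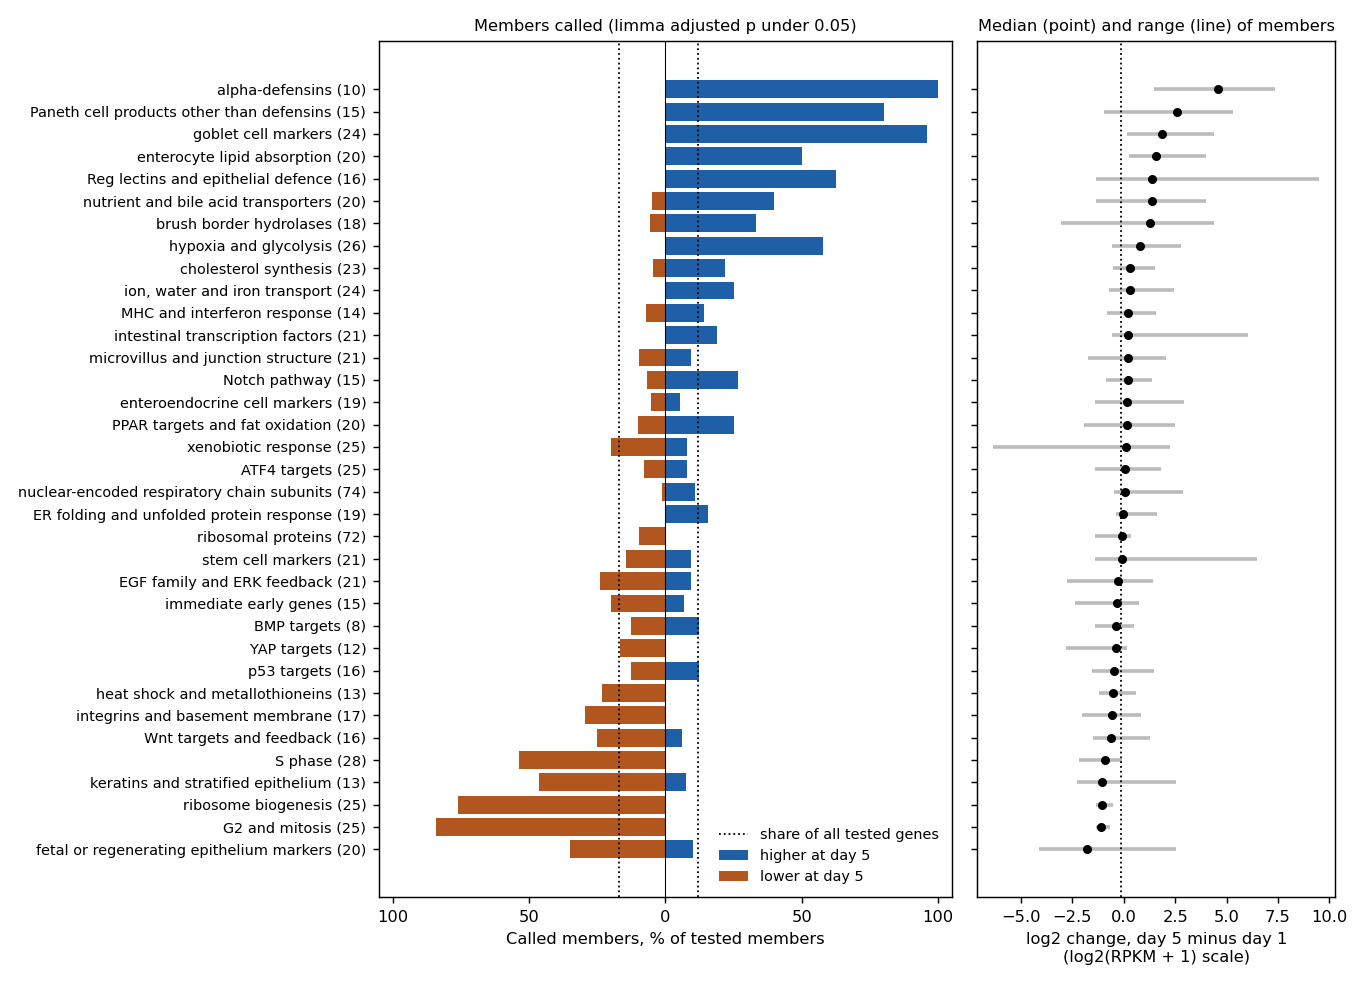
Left, the share of tested members of each list shown that was higher (blue, to the right) or lower (orange, to the left) at day 5. Brackets give the number of tested members, and dotted lines the shares over all tested genes, 12.1% higher and 16.9% lower. Not shown are the tuft cell list, with few tested members, and the lists of epithelial identity, other tissues, nuclear RNAs and histones. Right, the median (point) and the range (line) of the log2 changes of the members, with a dotted line at the median of all tested genes, -0.16. Lists of secretory and absorptive products lie at the top, and lists of cell division, ribosome biogenesis and regenerating epithelium at the bottom.

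Reg genes encode small secreted C-type lectins, and Reg3b and Reg3g are known for killing bacteria at the gut surface. Reg1 stood at 8.08, 2 and 2.42 RPKM at day 1 and at 5240, 2148 and 3056 RPKM at day 5, where it was the third most abundant gene of all. Every library of day 5 lay far above those of day 1, and the log2 change was 9.49 ± 1.36 (SE, limma adjusted p = 0.000492). Reg3a went from 0.598, 0.459 and 0.688 RPKM to 542, 366 and 590 RPKM, a log2 change of 8.28 ± 1.05 (adjusted p = 0.000213). Reg3b was more uneven at day 5. It read 4.2, 0.685 and 1.31 RPKM at day 1 and 503, 81.3 and 176 RPKM at day 5, so that replicate 1 was the highest library on both days. Reg3g rose from 5.03, 2.16 and 1.94 RPKM to 98.6, 172 and 141 RPKM, and here replicate 1 was the lowest library of day 5. Reg4, a goblet and enteroendocrine cell product on chromosome 3, moved least, from 47.3, 40.4 and 45.6 RPKM to 113, 90.5 and 60.9 RPKM. Of the 7 Reg genes in the table, 6 passed the filter and all 6 were called higher. For 2 of them, Reg3a and Reg3d, no library of day 1 reached 1 RPKM, so that they passed only through day 5 and could only rise. Reg2, at 0 RPKM in every day 1 library and at most 0.202 RPKM at day 5, did not pass. In the wider list of Reg lectins and epithelial defence genes, 10 of 16 tested members rose, the same 2 among them, and none fell. The median log2 change was 1.36 against -0.16 over all genes, of which 12.1% were higher. The list had 7 to 9 rises without 1 library in turn and 8 with DNase-treated libraries alone. It also held Pigr, the receptor that carries IgA across the epithelium, which rose from 157, 82.2 and 96.1 RPKM to 797, 748 and 936 RPKM.

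The 5′ regions of the Reg genes that moved together are shown with that of Defa30, the defensin with the largest rise, and that of Cyp1a1, the gene with the largest fall. Reg3b, Reg3d, Reg3a, Reg2, Reg1 and Reg3g lie in this order on chromosome 6, between 78370885 and 78468874 of mm10. Each window runs from 250 bases before to 50 bases after the annotated start in RefSeq (GRCm38.p6), on the strand of the gene. Capitals mark matches on either strand to 6 short motifs that were searched: CTTTGAT as bound by TCF/LEF factors, TGANTCA as bound by AP-1, GGAATG as bound by TEAD factors, CAAAGTC as bound by HNF4, TTTATGG as bound by CDX factors, and TATAAA as the core of the TATA box.
Reg1, chr6:78425733-78426032, plus strand: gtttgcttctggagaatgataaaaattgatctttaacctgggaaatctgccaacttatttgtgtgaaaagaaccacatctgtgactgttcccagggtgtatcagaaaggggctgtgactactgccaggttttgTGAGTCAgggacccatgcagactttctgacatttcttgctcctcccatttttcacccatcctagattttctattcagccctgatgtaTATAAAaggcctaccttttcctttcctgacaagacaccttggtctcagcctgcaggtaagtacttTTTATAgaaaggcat
Reg3a, chr6:78380459-78380758, plus strand: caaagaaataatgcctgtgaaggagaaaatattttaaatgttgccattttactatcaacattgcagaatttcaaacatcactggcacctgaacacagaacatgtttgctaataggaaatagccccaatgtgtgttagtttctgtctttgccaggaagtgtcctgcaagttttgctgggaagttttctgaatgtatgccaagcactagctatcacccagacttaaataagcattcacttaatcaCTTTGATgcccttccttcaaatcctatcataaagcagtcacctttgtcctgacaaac
Reg3b, chr6:78370635-78370934, plus strand: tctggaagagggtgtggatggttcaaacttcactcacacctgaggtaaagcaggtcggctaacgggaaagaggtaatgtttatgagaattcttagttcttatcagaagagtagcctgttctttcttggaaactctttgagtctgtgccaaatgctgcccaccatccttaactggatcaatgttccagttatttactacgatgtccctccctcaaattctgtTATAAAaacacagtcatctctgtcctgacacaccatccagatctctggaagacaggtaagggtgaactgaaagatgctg
Reg3g, chr6:78468825-78469124, minus strand: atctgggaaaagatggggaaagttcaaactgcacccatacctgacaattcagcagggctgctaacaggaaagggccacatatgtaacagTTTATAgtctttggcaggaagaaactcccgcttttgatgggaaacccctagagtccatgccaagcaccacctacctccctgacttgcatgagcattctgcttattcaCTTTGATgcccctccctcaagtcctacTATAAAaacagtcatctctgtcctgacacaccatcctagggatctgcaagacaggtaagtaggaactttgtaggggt
Defa30, chr8:21134400-21134699, plus strand: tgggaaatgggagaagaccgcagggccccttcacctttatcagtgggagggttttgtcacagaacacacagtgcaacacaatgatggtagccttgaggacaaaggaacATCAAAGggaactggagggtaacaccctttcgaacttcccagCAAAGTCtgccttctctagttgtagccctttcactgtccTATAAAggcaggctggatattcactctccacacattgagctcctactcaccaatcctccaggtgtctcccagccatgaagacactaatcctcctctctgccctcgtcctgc
Cyp1a1, chr9:57697363-57697662, plus strand: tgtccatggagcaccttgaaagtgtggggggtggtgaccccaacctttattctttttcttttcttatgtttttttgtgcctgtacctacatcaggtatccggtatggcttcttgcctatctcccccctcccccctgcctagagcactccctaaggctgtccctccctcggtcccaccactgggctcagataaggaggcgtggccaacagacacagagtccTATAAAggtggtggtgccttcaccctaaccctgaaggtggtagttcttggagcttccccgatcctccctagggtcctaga
The windows of Reg3b and Reg3g shared 207 identical bases in a global alignment, 69.0% of 300, and those of Reg1 and Reg3a shared 152, or 50.7%. TATAAA was found in all windows shown except that of Reg3a. CTTTGAT or its reverse complement was found in those of Reg3a, Reg3g and Defa30, CAAAGTC in that of Defa30 and TGANTCA in that of Reg1. No match overlapped another in these windows. The window of Cyp1a1 lies inside the span that RefSeq gives the gene, around a start downstream of the beginning of that span. Over the 10797 windows of all tested genes that had one, TATAAA occurred in 7.21%, CTTTGAT in 2.53%, CAAAGTC in 3.79%, TGANTCA in 5.02%, GGAATG in 12.1% and TTTATGG in 1.6%. Among windows of genes higher at day 5, TATAAA occurred in 9.43%, CTTTGAT in 3.02%, CAAAGTC in 5.08%, TGANTCA in 6.48%, GGAATG in 13.4% and TTTATGG in 1.99%. Among those of genes lower at day 5, the shares were 7.94%, 2.88%, 3.16%, 4.43%, 11.3% and 2.36% in the same order. TTTATGG alone of the 6 was less frequent among the rising than among the falling genes, and all 6 were more frequent among the rising genes than over all windows. The median share of G and C bases was 58.7% in windows of rising genes, 60.3% in those of falling genes and 61.0% over all. These shares are descriptions of letters in the windows and were not tested.

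Paneth cell products were higher at day 5. Alpha-defensins are Paneth cell peptides that kill bacteria, and their genes lie in a tandem cluster on chromosome 8. Defa24, the most abundant of them, was at 40.5, 40.5 and 81 RPKM at day 1 and at 1567, 2049 and 1617 RPKM at day 5. The groups were far apart, with a log2 change of 5.06 ± 0.53 (limma adjusted p = 4.2e-05). Defa30 went from 0.998, 0.869 and 0.738 RPKM to 277, 406 and 241 RPKM, and Defa17 from 2.71, 2.91 and 5.49 RPKM to 199, 211 and 130 RPKM. Defa21 was listed at 0 in all 3 libraries of day 1 and read 29.8, 33.5 and 26.6 RPKM at day 5. Of 24 alpha-defensin genes in the table, 9 were at 0 in all 6 libraries and 10 passed the filter, all of them called higher with log2 changes of 1.46 to 7.34. For 8 of these 10 no library of day 1 reached 1 RPKM, so they passed only through day 5 and could only rise. The copies are nearly identical in sequence, so how reads were divided among them is uncertain. In bulk RNA, more cells of a type and more RNA per cell cannot be told apart.

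Other Paneth cell genes rose too. Lyz1, which encodes the Paneth cell lysozyme, went from 26.1, 15.8 and 36.6 RPKM to 296, 333 and 171 RPKM, a log2 change of 3.32 ± 0.6 (adjusted p = 0.00227). Itln1, a lectin that binds microbial sugars, went from 69.5, 76.4 and 41.9 RPKM to 955, 856 and 658 RPKM. The ribonuclease gene Ang4 went from 8.94, 7.31 and 11.4 RPKM to 94.2, 114 and 51.2 RPKM. In each of these 3 genes the lowest value of day 5 was above the highest of day 1, and replicate 3 of day 5 was the lowest of its day. Of 20 Paneth cell products other than defensins, 15 were tested, 12 were higher and none was lower, and 5 of the 15 had passed the filter only through day 5. Not called were Dll4, Fgfrl1 and Sox9, named after their values were seen. The rises numbered 10 to 12 without 1 library in turn and 10 with DNase-treated libraries alone.

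Goblet cell genes were higher at day 5 almost throughout the list. Spink4, a goblet cell protease inhibitor, stood at 43.6, 29.5 and 37.7 RPKM and then at 778, 909 and 694 RPKM, a log2 change of 4.4 ± 0.45 (limma adjusted p = 3.69e-05). The values did not overlap, nor did those of Zg16, a lectin of the mucus layer, at 17.8, 67.5 and 78.1 RPKM against 254, 348 and 218 RPKM. The chemokine gene Ccl6 went from 0.284, 0.126 and 0.308 RPKM to 10.6, 12 and 8.64 RPKM. Muc2, the main gel-forming mucin, was low on both days, at 0.476, 0.926 and 1.36 RPKM and at 2.21, 9.12 and 14.8 RPKM. Its replicate 1 was the lowest library of each day. In all, 23 of 24 tested goblet cell markers rose and none fell, with a median log2 change of 1.86, and 8 of them had passed the filter only through day 5. Foxa3 was the exception, with means of 8.85 RPKM at day 1 and 9.76 RPKM at day 5, and it is named after its value was seen. The count of rises lay between 16 and 20 without 1 library in turn and was 16 with DNase-treated libraries alone. The call of Zg16 was lost without replicate 1 of day 1 (adjusted p = 0.0505). Muc2 lost its call without replicate 1 or 2 of day 1 or replicate 2 or 3 of day 5, with adjusted p of up to 0.0803.

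Hormone genes were for the most part not called, and tuft cell genes were too low to test, with 1 exception. Of 19 tested enteroendocrine markers, 1 rose, 1 fell and 17 were not called. Gip, the incretin hormone of K cells, rose from 9.83, 8.08 and 8.73 RPKM to 73, 75.1 and 77.9 RPKM, a log2 change of 2.95 ± 0.59 (adjusted p = 0.00419). Pyy, a hormone of L cells, fell from 1.23, 2.54 and 5.15 RPKM to 0.268, 0.326 and 0.503 RPKM, a call that was lost without replicate 3 of day 1 or replicate 1 of day 5 (adjusted p of up to 0.0677), and Pyy had passed the filter only through day 1. The granule protein gene Chga was at 18, 28.6 and 27.4 RPKM and then at 16.9, 15.7 and 18.9 RPKM, with overlapping groups and a 95% interval of the log2 change from -1.18 to 0.24. Tuft cell markers were near the floor: 17 of 19 stayed below 1 RPKM in all 6 libraries, and the tuft cell kinase gene Dclk1 read at most 0.123 RPKM. The summed level of the 19 was 3.52 to 4.3 RPKM at day 1 and 6.62 to 7.63 RPKM at day 5, without overlap. Trpm5, the taste channel of tuft cells, had means of 0.0744 and 0.483 RPKM, and it is named after its values were seen.

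Stem cell markers did not move as a group. Of 21 tested, 2 rose and 3 fell, and the median log2 change was -0.11. Olfm4, a secreted protein of crypt base cells and a known Notch target, rose from 9.16, 5.33 and 0.783 RPKM to 577, 407 and 355 RPKM. Its log2 change of 6.49 ± 0.8 (limma adjusted p = 0.00015) was the fourth largest of those named by size. Gkn3, another crypt base gene, rose from 0.351, 1.23 and 0 RPKM to 8, 7.71 and 7.44 RPKM. Lgr5, the R-spondin receptor that defines crypt stem cells, stood at 2.64, 2.36 and 0.262 RPKM at day 1 and at 4.15, 5.85 and 5.43 RPKM at day 5. The groups of Lgr5 did not overlap, but the change did not pass the test (log2 change 1.29 ± 0.73, adjusted p = 0.18). With DNase-treated libraries alone it did (adjusted p = 0.0304). Cd44, Rnf43 and Ephb2 were called lower, Rnf43 going from 18.9, 23.8 and 17.1 RPKM to 5.76, 7.8 and 8.81 RPKM. All 3 of these calls were lost without replicate 1 or 2 of day 1 or any library of day 5, and that of Rnf43 also without replicate 3 of day 1. Without replicate 1 of day 1, 4 stem cell markers rose, and after rescaling by median-of-ratios 4 rose and 2 fell.

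In the main fit the called genes of the Wnt list mostly fell and those of the Notch list mostly rose. Beside them, 16.9% of all tested genes were lower and 12.1% were higher. Rnf43, a ubiquitin ligase that removes Wnt receptors, Cd44, Ephb2 and the transcription factor gene Tcf7 fell, and Fzd5, a Wnt receptor, rose, making 4 lower and 1 higher of 16 tested Wnt targets and feedback genes. Tcf7 went from 6.43, 7.6 and 7.15 RPKM to 1.57, 1.95 and 1.96 RPKM, a log2 change of -1.51 ± 0.4 (adjusted p = 0.0149, lost without replicate 1 of day 5 at adjusted p = 0.0504). Axin2, a widely used Wnt target, had means of 21.4 RPKM and 19.6 RPKM and was not called, and it is named after its value was seen. The count of falls was 0 without replicate 1 of day 5. It was 1 without replicate 1 or 2 of day 1 or replicate 2 or 3 of day 5. With DNase-treated libraries alone 2 Wnt genes rose and 0 fell, and 3 Notch genes rose and 0 fell. Fzd5 lost its call without replicate 2 or 3 of day 1 or replicate 2 or 3 of day 5 (adjusted p of up to 0.0955). In the Notch pathway 4 of 15 tested genes rose and 1 fell, and the same count of rises was found without each of the 6 libraries in turn, while the fall was lost without replicate 1 or 2 of either day. Hes1, a Notch target repressor, rose from 20.5, 25 and 17.5 RPKM to 33, 42.1 and 39.9 RPKM, with groups that did not overlap and a log2 change of 0.85 ± 0.21 (adjusted p = 0.0103). Nrarp, a feedback inhibitor of Notch, rose from 4.33, 2.97 and 3.47 RPKM to 10.7, 11.3 and 10.9 RPKM. Atoh1, the transcription factor that sets the secretory fate and is repressed by Hes1, rose too, from 1.38, 1.51 and 1.25 RPKM to 3.65, 4.31 and 3.45 RPKM. The ligand gene Dll1 went from 8.87, 8.67 and 7.41 RPKM to 12.8, 20.2 and 17 RPKM.

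Among the largest rises were 4 genes known for roles in retinol metabolism, a grouping made after their values were seen. Adh1 and Adh4 encode alcohol dehydrogenases that can oxidise retinol, and they lie near each other on chromosome 3. Adh1 went from 21.8, 22.1 and 79.3 RPKM to 2141, 1693 and 1756 RPKM, a log2 change of 5.73 ± 1 (limma adjusted p = 0.00178). Adh4 went from 0.17, 0.0517 and 0.995 RPKM to 56.8, 81.9 and 74 RPKM. It had passed the filter only through day 5 and could only rise. In both genes replicate 3 of day 1 was the highest library of day 1 and still far below day 5. Rdh7, a retinol dehydrogenase gene, rose from 1.78, 1.25 and 3.93 RPKM to 144, 88.9 and 104 RPKM. Isx, a homeobox factor of the intestine that limits vitamin A uptake, rose from 0.393, 1.56 and 0.173 RPKM to 58.2, 133 and 144 RPKM. It had by far the largest change among intestinal transcription factors. In that list 4 of 21 tested genes rose and none fell (2 rises without replicate 2 of day 1), beside 12.1% higher over all tested genes.

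Enterocyte genes of fat absorption were called higher in part, with wide spread at day 1. Fabp1, a fatty acid binding protein of enterocytes, was the most abundant gene of day 5. It read 1155, 1082 and 2745 RPKM at day 1 and 10048, 8047 and 9553 RPKM at day 5. Replicate 3 was the highest library of day 1, the groups did not overlap, and the log2 change was 2.6 ± 0.68 (limma adjusted p = 0.0134). Apoc3, an apolipoprotein gene, rose from 5.69, 6.94 and 10.9 RPKM to 155, 113 and 152 RPKM. Apoa1 went from 146, 268 and 797 RPKM to 2563, 1745 and 2187 RPKM, and Apoa4 from 117, 290 and 355 RPKM to 2051, 1749 and 1849 RPKM. Among 20 tested genes of lipid absorption, 10 rose and none fell, and all 20 had a log2 change above 0. That count was 1 without replicate 1 of day 1, 3 without replicate 2 of day 1, 2 without replicate 1 of day 5, 5 without replicate 2 of day 5 and 4 without replicate 3 of day 5. It was 1 with DNase-treated libraries alone. The call of Fabp1 was lost without replicate 1 or 2 of day 1, at adjusted p of up to 0.0529, and that of Apoc3 was kept without each library. Apoa4 lost its call without replicate 1 of either day (adjusted p of up to 0.0766), and Apoa1 without any library other than replicate 3 of day 1 (adjusted p of up to 0.127).

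Brush border enzymes and transporters were called higher in part too, with 1 fall in each list. Sis, the sucrase-isomaltase that splits sugars, stood at 71.4, 33.6 and 99.5 RPKM at day 1 and at 817, 660 and 889 RPKM at day 5 (log2 change 3.63 ± 0.96, adjusted p = 0.014). It lost its call without replicate 2 of day 1 (adjusted p = 0.0565). Treh, the trehalase gene, rose from 3.61, 3.54 and 6.37 RPKM to 116, 75.7 and 120 RPKM. Ggt1, a transpeptidase that degrades glutathione, rose from 0.654, 0.897 and 6.9 RPKM to 80.6, 32.4 and 87.1 RPKM. Both sets of values were clear of each other. Of 18 tested hydrolases, 6 rose and 1 fell. Akp3, an intestinal alkaline phosphatase gene that was named as 1 of the largest decreases, went the other way, from 515, 792 and 1176 RPKM to 172, 109 and 42.4 RPKM, a log2 change of -3.06 ± 0.67 (adjusted p = 0.00636). Another intestinal alkaline phosphatase gene, Alpi, overlapped between the days at 364, 583 and 707 RPKM and 595, 646 and 404 RPKM. Among 20 tested transporters of nutrients and bile acids, 8 rose, 1 of them after passing the filter only through day 5, and 1 fell. The glucose transporter gene Slc5a1 went from 57.6, 40.4 and 92.6 RPKM to 633, 492 and 500 RPKM, and the fructose transporter gene Slc2a5 from 1.83, 2.56 and 6.74 RPKM to 70.4, 59.5 and 71 RPKM. Akp3 kept its call without each library. The count of hydrolases that rose lay between 4 and 7 without 1 library in turn and was 4 with DNase-treated libraries alone. The count of transporters that rose was 5 without replicate 1 or 2 of day 1 or replicate 1 or 2 of day 5.

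**Figure D3:**
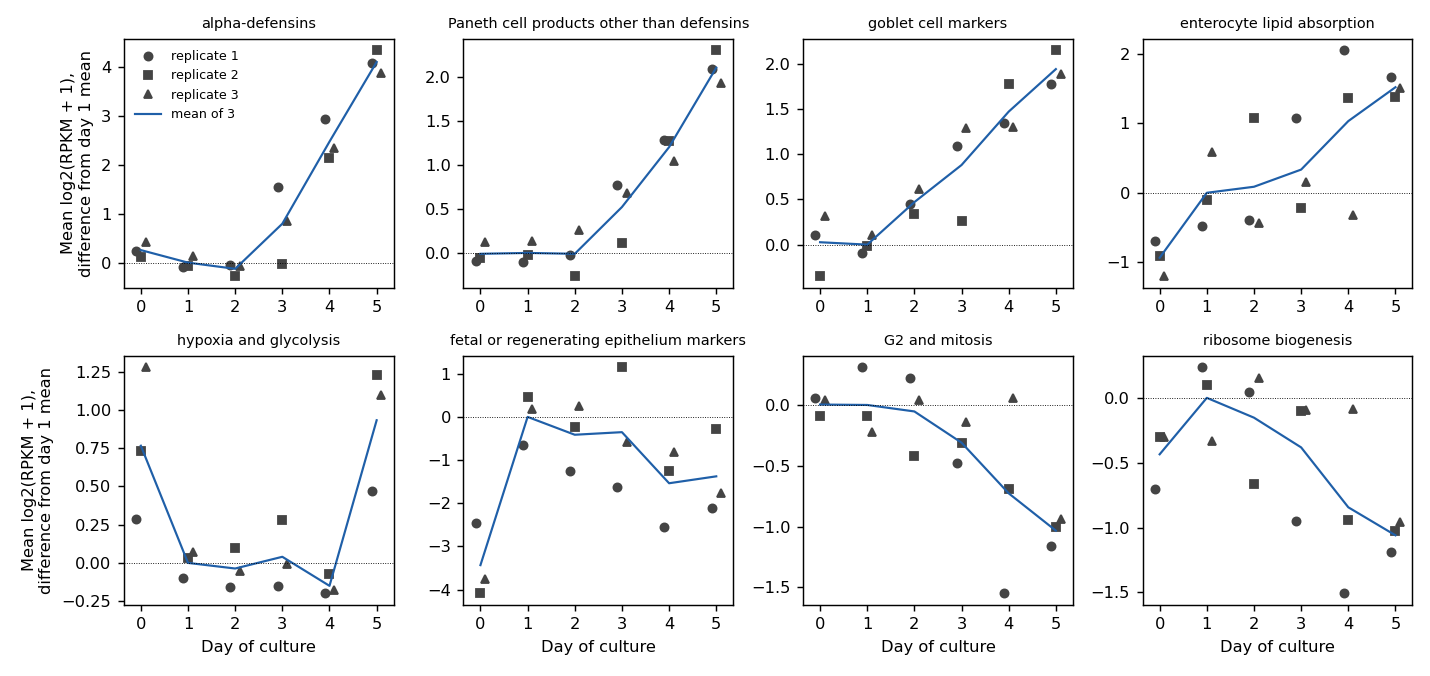
Mean log2(RPKM + 1) over the tested members of 8 gene lists in each of the 18 libraries, as the difference from the mean of day 1 (dotted line at 0), against the day of culture, with a marker per replicate and a line through the mean of 3. The alpha-defensins lay between 3.89 and 4.35 at day 5, and the hypoxia and glycolysis list was at 0.28 or below from day 1 to day 4 and between 0.47 and 1.23 at day 5.

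Genes of hypoxia and glycolysis were higher at day 5 or were not called. Of 26 tested members, all of which passed the filter, 15 rose and none fell, with a median log2 change of 0.80. Car9, a carbonic anhydrase induced by the hypoxia factor HIF, stood at 28.9, 25.2 and 24 RPKM at day 1 and at 117, 131 and 156 RPKM at day 5. The log2 change was 2.32 ± 0.38 (limma adjusted p = 0.00103), with no overlap between the days. Ndrg1, another HIF target, rose from 11.9, 25.5 and 28.9 RPKM to 130, 139 and 174 RPKM. Ankrd37 rose from 1.89, 3.47 and 3.06 RPKM to 13.1, 35.9 and 28.9 RPKM, where replicate 1 was the lowest library of each day. Egln3, a HIF prolyl hydroxylase gene, rose from 11.1, 9.94 and 18.4 RPKM to 27.6, 57.5 and 51.5 RPKM. Without 1 library in turn the count of rises lay between 10 and 16, and it was 15 with DNase-treated libraries alone. Not called were Hk1, Hk2, Slc2a1, Pkm, Vegfa and 6 others, named here after their values were seen. Among these others, Gapdh averaged 1.78 RPKM at day 1 and 1.79 RPKM at day 5, Pgam1 5.98 and 7.4 RPKM and Pgk1 14.2 and 17.1 RPKM. Such levels were low beside those of Aldoa, at 315 RPKM at day 1, and the reason was not tested.

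Other metabolic lists moved less. For the counts below, the shares over all tested genes were 12.1% higher and 16.9% lower. Among nuclear-encoded subunits of the respiratory chain, 8 of 74 rose and 1 fell, a share of rises near the 12.1% of all genes. After quantile normalization 6 rose and 7 fell, so that the balance of calls in this list depended on the scaling. Cox7a1, a subunit of cytochrome c oxidase, stood out with 4.91, 10 and 24.7 RPKM at day 1 and 86.9, 64 and 121 RPKM at day 5 (log2 change 2.9 ± 0.63, adjusted p = 0.00588). Of 23 cholesterol synthesis genes, 5 rose and 1 fell, led by the sterol sensor gene Insig1, from 38.3, 39.1 and 59.5 RPKM to 121, 136 and 137 RPKM. PPAR targets and fat oxidation genes counted 5 rises and 2 falls of 20. The falls numbered 0 after either rescaling, by median-of-ratios or by quantiles, with DNase-treated libraries alone, and without replicate 1 or 2 of day 1 or replicate 1 or 3 of day 5. Ehhadh, a peroxisomal enzyme of fatty acid oxidation, rose from 15.5, 12.2 and 25.3 RPKM to 81.2, 67.1 and 76.1 RPKM. Rises in the respiratory chain numbered 3 without replicate 1 of day 1, 4 without replicate 2 of day 1 or replicate 1 of day 5 and 5 without replicate 3 of day 5. Those in cholesterol synthesis numbered 2 without replicate 1 of day 1 or replicate 2 or 3 of day 5 and 3 without replicate 2 of day 1 or replicate 1 of day 5. Those among PPAR targets numbered 3 without any single library other than replicate 3 of day 1. With DNase-treated libraries alone each of the 3 lists had 2 rises. Slc11a2, the iron importer of the apical membrane, rose from 10.1, 8.05 and 7.74 RPKM to 40.2, 32.2 and 40.8 RPKM, among 6 rises and no fall in 24 genes of ion, water and iron transport (3 rises without replicate 2 of day 1). Aqp3 and Car8, 2 of the 6, had passed the filter only through day 5 and could only rise.

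Cyp1a1 had the largest fall. The gene, at chr9:57687928-57703824 in the annotation, encodes a cytochrome P450 that the aryl hydrocarbon receptor induces. It read 78.1, 194 and 154 RPKM at day 1 and 0.995, 0.592 and 0.42 RPKM at day 5, a log2 change of -6.34 ± 0.76 (limma adjusted p = 0.000138). Day 0 had been low as well, at 0.581, 1.84 and 0.578 RPKM. Other genes known to answer to the same receptor, named after their values were seen, were low overall. Cyp1b1 averaged 2.42 RPKM at day 1 and 0.01 RPKM at day 5, and Ahrr 0.821 and 0.0239 RPKM, both without passing the filter. Tiparp, also a target of that receptor, was called higher, with means of 6.2 and 9.94 RPKM. In the xenobiotic response list 5 of 25 fell and 2 rose, beside 16.9% lower and 12.1% higher over all tested genes. Cyp1a1 was 1 of the 5 and had passed the filter only through day 1. Akr1b8, an aldo-keto reductase gene, fell from 109, 102 and 196 RPKM to 10.4, 31 and 12.9 RPKM, and the carboxylesterase gene Ces2e rose from 100, 58.4 and 112 RPKM to 401, 404 and 440 RPKM. Without 1 library in turn 3 or 4 of the list fell, 3 of them without replicate 2 of day 1 or replicate 1 or 3 of day 5. There was 1 rise without any single library other than replicate 3 of day 1, and Ces2e kept its call without each.

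Markers of fetal or regenerating epithelium were lower at day 5 in part, and replicate 2 of day 5 stood apart in them. Lgals3, which encodes galectin-3, had 181, 481 and 699 RPKM at day 1 and 18.5, 43.5 and 12.8 RPKM at day 5. It was the second largest fall, with a log2 change of -4.11 ± 0.9 (limma adjusted p = 0.00648). S100a6, a calcium binding protein gene, fell from 429, 1109 and 1177 RPKM to 75.7, 369 and 92 RPKM. Areg, an EGF receptor ligand gene, fell from 75.2, 173 and 153 RPKM to 10.7, 35.6 and 14.2 RPKM. Values of these genes did not overlap, and replicate 2 was the highest library of day 5 in each. Of 20 tested markers 7 fell and 2 rose, with a median log2 change of -1.77, and the rises numbered 0 or 1 without each library in turn. Sprr1a, a cornified envelope protein gene, rose, from 4.72, 8.12 and 8.66 RPKM to 14.5, 176 and 36.1 RPKM. Clu, a marker of revival stem cells, overlapped between the days at 16, 58 and 15.8 RPKM and 12.3, 165 and 35.9 RPKM. Ly6a, the Sca-1 gene, was at 32.8, 59.3 and 35.8 RPKM and at 3.55, 28.7 and 5.85 RPKM, and its change of -2.11 ± 1 on the log2 scale did not pass the test (adjusted p = 0.117). In Sprr1a, Clu and Ly6a replicate 2, the day 5 library of mouse 2, was again the highest of day 5. Without it 7 markers still fell, whereas 1 fell without replicate 2 of day 1 or replicate 1 or 3 of day 5 and 2 without replicate 3 of day 1. The rescaling by median-of-ratios gave 5. The calls of S100a6, Areg and Sprr1a were lost without several single libraries, with adjusted p of up to 0.146, 0.0773 and 0.188 (for Sprr1a also with the mouse as a factor, at 0.0682), and that of Lgals3 was kept without each.

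YAP targets, integrins and growth factors made smaller groups. Of 12 tested YAP targets 2 fell and none rose, a share near the 16.9% of all genes. Ajuba, a LIM protein that acts in the Hippo pathway, fell from 20.6, 30.4 and 20.7 RPKM to 1.37, 5.54 and 1.82 RPKM (log2 change -2.8 ± 0.63, limma adjusted p = 0.00728). Ctgf, the classical YAP target, overlapped at 1.8, 6.54 and 3.13 RPKM and 1.23, 11.8 and 2.64 RPKM, as did Yap1 itself at 14.4, 11.5 and 9.95 RPKM and 9.9, 10.3 and 10.1 RPKM. Among 17 integrin and basement membrane genes 5 fell and none rose. Itga6, a laminin receptor subunit, fell from 35.1, 40 and 36.7 RPKM to 18.1, 19.7 and 22.3 RPKM, and Itgb6 from 5.06, 9.65 and 7.68 RPKM to 0.876, 2.42 and 1.17 RPKM. Both calls were kept without each library, while the count of falls was 2 without replicate 2 of day 1 or replicate 1 of day 5 and 3 without replicate 3 of day 5. In the EGF family and ERK feedback list 5 of 21 fell and 2 rose. The ligand gene Btc fell from 16.9, 17.2 and 19.2 RPKM to 3.22, 4.93 and 2.68 RPKM, and Fosl1, an AP-1 subunit, from 4.11, 10.9 and 4.15 RPKM to 0.135, 0.709 and 0.209 RPKM. Fosl1 had passed the filter only through day 1 and could only fall. The falls numbered 3 without replicate 2 of day 1 or replicate 1 or 3 of day 5. Fos, an immediate early transcription factor gene, fell from 15.7, 38.3 and 36.9 RPKM to 2.76, 7.11 and 6.01 RPKM, as 1 of 3 falls and 1 rise among 15 immediate early genes. Fosl1 was counted there too, and the rise was lost without replicate 1 or 2 of either day. Over all tested genes 16.9% were lower and 12.1% were higher.

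Simple epithelial keratins, the filament proteins of the enterocyte, were among the most abundant transcripts of day 1 and fell. Krt18 stood at 937, 1600 and 1116 RPKM and then at 201, 328 and 221 RPKM, a log2 change of -2.28 ± 0.56 (limma adjusted p = 0.0103). Its partner Krt8 went from 1162, 1846 and 1655 RPKM to 414, 548 and 421 RPKM, and replicate 2 was the highest library of both days in both genes. Krt19 fell from 1485, 2482 and 2274 RPKM to 845, 1146 and 970 RPKM. That call was lost without replicate 2 or 3 of day 1 or replicate 1 or 3 of day 5 (adjusted p of up to 0.0942) and after rescaling by median-of-ratios (adjusted p = 0.0508). Of 13 tested keratin and stratified epithelium genes 6 fell and 1 rose, and 3 fell after that rescaling or without replicate 2 or 3 of day 1. The rise was lost without any single library other than replicate 1 of day 5. Sfn, an epithelial 14-3-3 protein gene, fell from 56.2, 124 and 97.3 RPKM to 15.5, 25.4 and 22.3 RPKM. Acta1, an actin gene best known from skeletal muscle, fell from 143, 293 and 340 RPKM to 16.6, 26.1 and 13.8 RPKM, a log2 change of -3.67 ± 0.61 (adjusted p = 0.00133). In the RefSeq window of Acta1, TATAAA and GGAATG were both found. Of 21 tested genes of microvilli and junctions 2 rose and 2 fell (1 fall without any single library, and 4 rises without replicate 3 of day 1). The shares over all tested genes were 12.1% higher and 16.9% lower. Cldn2, which forms cation pores, fell from 206, 160 and 168 RPKM to 85.1, 88.2 and 70.4 RPKM, and Cldn15, also a cation pore of the gut, rose from 93.8, 69.6 and 97 RPKM to 387, 334 and 358 RPKM.

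Cell division genes were lower at day 5. Rrm2, the subunit of ribonucleotide reductase that supplies nucleotides in S phase, stood at 107, 83.2 and 101 RPKM and then at 19.9, 20.3 and 20.3 RPKM. Day 5 was tight and well below day 1, with a log2 change of -2.2 ± 0.34 (limma adjusted p = 0.00074). Ccne1, cyclin E1, fell from 21, 18 and 17.1 RPKM to 6.51, 5.65 and 6.72 RPKM. Of 28 tested S phase genes 15 fell and none rose, with a median log2 change of -0.93 and 28 changes below 0. Among 25 genes of G2 and mitosis 21 fell and none rose, with a median of -1.09 and all values of day 5 below those of day 1 in each of the 25. Aurka, a mitotic kinase gene, fell from 57.4, 50 and 45.1 RPKM to 17, 20.3 and 20.7 RPKM (log2 change -1.35 ± 0.3, adjusted p = 0.00698). Ube2c, which helps degrade mitotic cyclins, fell from 179, 152 and 124 RPKM to 67.2, 62.4 and 64.8 RPKM. Mki67, the proliferation marker, fell from 47.9, 41.5 and 35.6 RPKM to 9.08, 17.8 and 25.7 RPKM, and that call was lost without replicate 1 or 2 of day 1 or replicate 1 or 2 of day 5 (adjusted p of up to 0.133). The counts depended on single libraries. S phase had 2 falls without replicate 1 of day 1 or replicate 1 of day 5, 4 without replicate 2 of day 1 or replicate 2 or 3 of day 5 and 8 without replicate 3 of day 1. G2 and mitosis had 4 falls without replicate 1 of day 1, 6 without replicate 1 of day 5, 11 without replicate 2 of day 1 or replicate 2 of day 5 and 13 without replicate 3 of day 5. With DNase-treated libraries alone the falls numbered 2 and 8.

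Ribosome biogenesis fell with cell division, and the ribosomal proteins themselves moved little. Of 25 tested biogenesis genes 19 fell and none rose, with a median log2 change of -1.05, and the 3 values of day 5 were below those of day 1 in all 25. Nhp2, a protein of snoRNA particles, went from 138, 145 and 112 RPKM to 57.5, 53.2 and 54.1 RPKM (log2 change -1.24 ± 0.31, limma adjusted p = 0.0114). Rrp12, which acts in export of ribosomal subunits, went from 15, 16.5 and 10.9 RPKM to 3.52, 5.71 and 6.72 RPKM. Both calls were kept without each library. The falls numbered 3 without replicate 1 of day 1 or replicate 1 of day 5, 5 without replicate 2 of day 1, 6 without replicate 2 of day 5 and 8 without replicate 3 of day 5, and 4 with DNase-treated libraries alone. Among 72 ribosomal protein genes 7 fell and none rose, with a median of -0.08, beside 16.9% lower over all tested genes. Rpl28, Rpl35 and Rps28 were among the 7, had passed the filter only through day 1 and could only fall. Those falls numbered 1 without replicate 1 or 2 of day 1, 2 without replicate 2 or 3 of day 5 and 3 without replicate 1 of day 5. Members named by the rule were low in these tables, such as Rpl27 at 6.77, 7.66 and 5.07 RPKM and 2.89, 2.57 and 2.42 RPKM, while Rpl8 averaged 1143 RPKM at day 1. Many ribosomal protein genes have near-identical processed copies in the genome, so their levels here are uncertain. The chaperone gene Hsp90aa1 fell from 44.6, 36.3 and 37.4 RPKM to 13.2, 18.1 and 18.6 RPKM, among 3 falls and no rise in 13 heat shock and metallothionein genes (1 fall without replicate 1 of day 1).

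Remaining lists held few calls, beside 12.1% higher and 16.9% lower over all tested genes. Of 19 genes of ER folding 3 rose, among them Ern2, a stress sensor of goblet cells, from 0.54, 0.786 and 0.622 RPKM to 2.62, 4.53 and 5.05 RPKM. Ern2 had passed the filter only through day 5 and could only rise. B2m, the light chain of class I molecules, rose from 136, 112 and 147 RPKM to 515, 331 and 359 RPKM, among 2 rises and 1 fall in 14 MHC and interferon response genes. Among 16 p53 targets 2 rose and 2 fell, among 25 ATF4 targets 2 rose and 2 fell, and among 8 BMP targets 1 rose and 1 fell. Without 1 library in turn, the counts for MHC, p53, ATF4 and BMP genes each lay between 0 and 2. The nuclear RNAs Malat1 and Neat1 were lower in the untreated replicate 1 of both days. Neat1 read 10.2, 57.4 and 58 RPKM at day 1 and 1.98, 24.3 and 32.7 RPKM at day 5, and Malat1 7.57, 22.5 and 23.7 RPKM and 1.82, 10.1 and 11.5 RPKM. Neither passed the test over all libraries, and both did with DNase-treated libraries alone, at adjusted p = 0.0319 for Neat1 and 0.00731 for Malat1.

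Counts in several lists were larger in fits that kept these 6 libraries and left out some or all of the others. In a fit of the 6 libraries alone, 26 S phase genes, 12 markers of fetal or regenerating epithelium, 15 ribosomal protein genes, 10 keratin genes, 8 Wnt genes and 7 stem cell markers fell. In the same fit 14 transporters, 12 hydrolases and 10 ion transport genes rose. Without replicate 1 of day 0, replicate 2 of day 3 and replicate 3 of day 4 the falls numbered 24 for S phase, 12 for fetal or regenerating epithelium, 8 for integrins and 5 for immediate early genes, and 10 hydrolases rose.

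**Figure D4:**
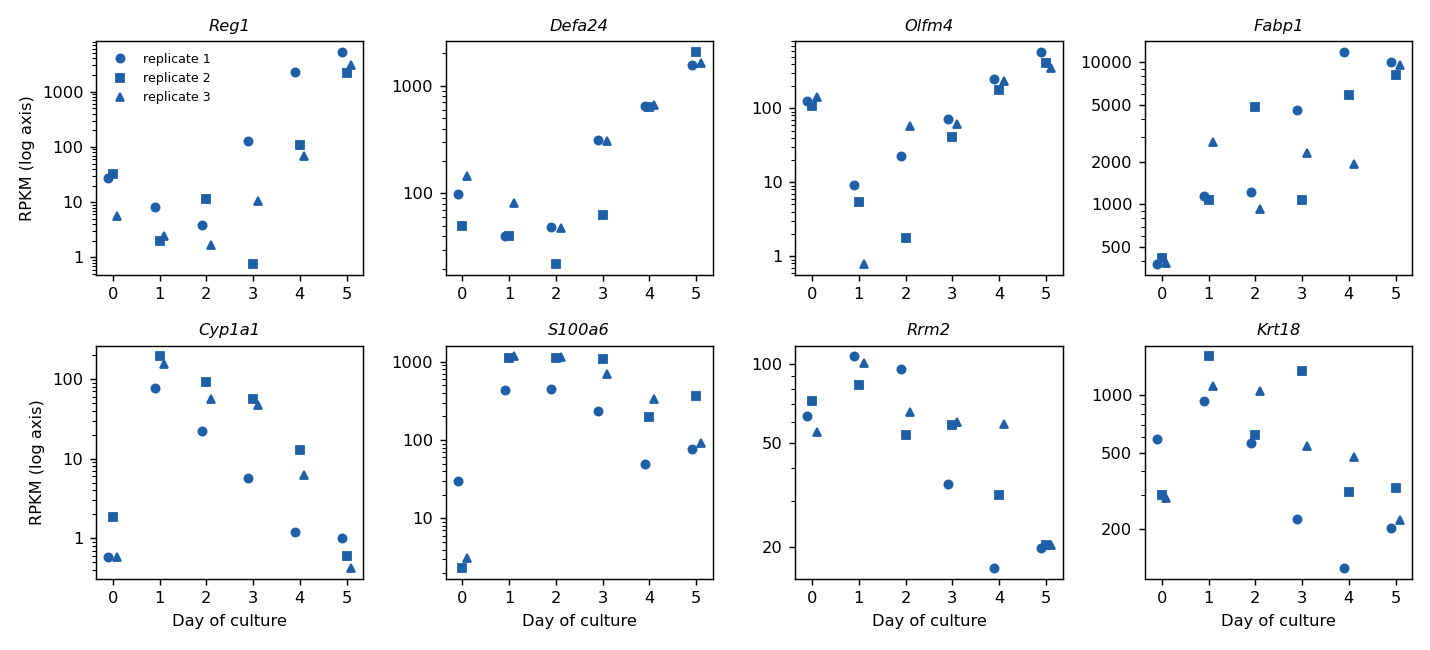
RPKM on a log axis for 8 genes in each of the 18 libraries against the day of culture, with a marker per replicate. Reg1, Defa24 and Olfm4 reached their highest values at day 5, and Cyp1a1 and S100a6 were low at day 0, high at day 1 and lower again at day 5.

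The days between and before were placed on the line from day 1 to day 5. For each called gene the mean of day 1 was set to 0 and that of day 5 to 1, on the log2(RPKM + 1) scale, and the median over genes was taken in each library. These positions share their end points with the calls and are a description. On days 2, 3 and 4 the rising genes stood on average at 0.22 ± 0.19, 0.38 ± 0.29 and 0.70 ± 0.3 (SD, n = 3). The falling genes stood at 0.15 ± 0.27, 0.36 ± 0.29 and 0.76 ± 0.5. By the mean of 3 libraries, 11.4% of the rising and 2.95% of the falling genes were past the midpoint at day 2, 29.2% and 17.4% at day 3, and 82.5% and 94.5% at day 4. Libraries of one day differed widely. Replicate 1 of day 4 was at 0.98 for the rising and 1.25 for the falling genes, and replicate 3 at 0.39 and 0.24. Single genes kept that order, as Reg1 did at day 4 with 2242, 107 and 67.6 RPKM, Fabp1 with 11761, 5876 and 1925 RPKM and Rrm2 with 16.6, 31.6 and 59.1 RPKM. Defa24 did not, at 651, 630 and 662 RPKM.

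**Figure D5:**
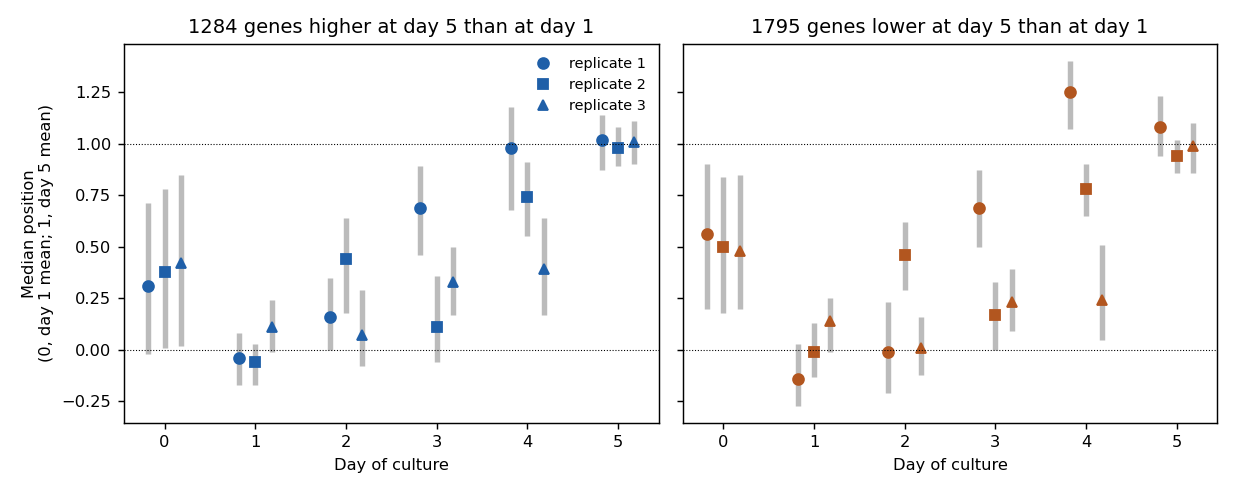
Median position of each of the 18 libraries between the day 1 mean (0) and the day 5 mean (1) over the 1284 genes higher (left) and the 1795 genes lower (right) at day 5, with grey bars for the middle 50% of genes and a marker per replicate. At day 4 the rising genes spread from 0.39 to 0.98 and the falling genes from 0.24 to 1.25, and at day 0 the falling genes lie between 0.48 and 0.56.

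Day 0, the start of the culture, lay between day 1 and day 5 by these medians. The genes lower at day 5 stood at 0.51 ± 0.04 at day 0, and 51.3% of them were past the midpoint towards day 5. The genes higher at day 5 stood at 0.37 ± 0.05, nearer to day 1, and 41.3% of them were past it. Many single genes lay outside the line at day 0. Of the genes higher at day 5, 23.6% had a position below 0 and 14.3% one above 1. Of those lower at day 5, 11.9% and 16.4% did. Cyp1a1, S100a6 and Lgals3 had been low at day 0, with S100a6 at 30.2, 2.31 and 3.09 RPKM and Lgals3 at 32.5, 3.93 and 4.86 RPKM. Each of these genes was higher at day 1 than at day 0 and at day 5. Olfm4 had been at 125, 106 and 140 RPKM at day 0 and Lgr5 at 1.33, 28.3 and 32 RPKM. Olfm4 at day 5 was above its day 0 values and Lgr5 overlapped with them. Reg1, at 27.6, 32.8 and 5.69 RPKM at day 0, and Defa24, at 97.9, 50.3 and 145 RPKM, were far lower at day 0 than at day 5. Rrm2 was at 63.1, 72.1 and 54.7 RPKM at day 0, between its values of day 1 and of day 5. The hypoxia and glycolysis list stood at 0.29, 0.73 and 1.28 on the log2 scale above the day 1 mean at day 0, at -0.20, -0.07 and -0.18 at day 4 and at 0.47, 1.23 and 1.10 at day 5, so that its rise came after day 4.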

How the data were processed

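Messenger RNA of mouse intestinal organoids was sequenced at 6 days of culture, 3 libraries a day, after extraction with a kit for single cells and a TruSeq mRNA preparation, per the labels' protocols. The values deposited by the authors are RPKM. In the submitters' processing notes the build mm10 and the tools STAR 2.5.2b, edgeR 3.20.5 and bcl2fastq 2.17 are listed without roles. Not given in the sources used here are the annotation, the handling of multiply matching reads, strand and scaling factors. Library sizes were recovered from the whole-read steps of low values, as the depth shared by 487 genes.

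Tests used limma 3.58.1 (lmFit and eBayes with a trend) in R 4.3.3 on log2(RPKM + 1), a scale that understates changes of low genes. All 18 libraries entered 1 model with a coefficient per day, and 10600 genes were tested for day 5 minus day 1, two-sided, with Benjamini-Hochberg adjustment. There were 42 gene lists. Named genes were the 12 largest changes each way among called genes with non-overlapping groups and a higher mean of at least 5 RPKM (predicted genes, pseudogenes and clone names left out), up to 5 called members of each list (up to 3 of the most abundant where fewer than 3 were called) and 14 defining markers. The comparison, members and lists were chosen with earlier results of these data known. The alternatives changed the libraries, the pseudocount, the filter, the scaling and the weights, or added a replicate block or the mouse, and gave 19 fits in all. Same-numbered libraries were compared by the correlation of their deviations from the day means. The code was tested on simulated data. Gene positions and promoter windows came from RefSeq, in which 24061 genes matched, and 8476 tested genes had a window. Some genes that the rule names are not reported here.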

Additional observations from a re-analysis of the deposited data

How the results depend on the processing

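Of 162 named genes that were called, 92 kept the call without any 1 of the 6 libraries and 70 lost it without at least 1. Without 1 library in turn the genes called higher numbered 805 to 1170 and those called lower 648 to 1508. Array weights gave 2345 higher and 3710 lower, with weights whose fit did not converge, and DNase-treated libraries alone gave 827 lower. The cause of these differences was not tested. With 3 libraries a day, changes of low genes are limited by the reads behind 1 RPKM.

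Deviations of same-numbered libraries correlated at 0.24, 0.34 and -0.15 for replicates 1, 2 and 3, and replicate 2 came from different mice on the 2 days, so the numbers were not taken to pair the libraries. With the replicate block 1424 genes were higher and 2188 lower, and 160 of the 162 named calls were kept, all but Cd44 and Tjp1 (adjusted p = 0.0522 and 0.0567). With the mouse as a factor, as the titles give it, 1445 were higher and 2339 lower, and 159 were kept, all but Tjp1, Sprr1a and Btg2 (adjusted p = 0.0645, 0.0682 and 0.0541).

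Some uncalled genes changed sign on the log2 scale. Median-of-ratios rescaling gave 0.11 for Gadd45a and 0.13 for Epcam. Quantile normalization gave 0.07 for Gadd45a and -0.35 for Alpi, and array weights gave 0.00 for Gadd45a. The mouse as a factor gave -0.01 for Alpi, -0.19 for Ctgf and 0.01 for Epcam. DNase-treated libraries alone gave -0.24 for Hist1h2bc and -0.33 for Alpi. Without 1 library in turn the values ranged from -0.08 to 0.39 for Chgb, -0.28 to 0.21 for Gadd45a, -0.04 to 0.36 for Bmpr1a, -0.15 to 0.28 for Hist1h2bc, -0.25 to 0.22 for Alpi, -0.21 to 1.61 for Clu, -0.64 to 0.62 for Ctgf and -0.12 to 0.05 for Epcam.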
